A study of Homo sapiens with 2 samples.

Results

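DNMT1, POLE and 8 further genes of the DNA replication fork were examined for contacts with SF3B1, a core protein of the U2 small nuclear ribonucleoprotein. The 10 genes were DNMT1, POLE, POLD1, POLA1, PCNA, UHRF1, MCM2, MCM4, MCM7 and RFC1. A deposited interval was given to a gene when the interval carried that gene's NCBI number and its midpoint lay inside the RefSeq span of the gene, with rows of identical position and strand counted once. By this rule 4 of the 10 genes (DNMT1, POLE, POLD1 and MCM4) held 10 of the 1406 distinct intervals of the list. The other 6 genes held 0 intervals. The genes were chosen by their role in replication and with the intervals and heights of this list already known, so the numbers, heights and positions of their intervals are a description and were not tested.

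HITS-CLIP uses ultraviolet light to fix a protein to the RNA it touches, pulls the protein down with an antibody and sequences the attached RNA fragments as tags. It was done in biological duplicate on MDA-231-LM2 cells, which derive from the breast cancer line MDA-MB-231 and were selected for metastasis to the lung; the 2 libraries formed 1 group with no treatment named and without a control or input library. SF3B1 is the target by the title and the antibody, but the extract protocol names SNRBP2; SF3B1 was assumed here. The authors pooled the tags of the 2 libraries before calling peaks, so no value below has a replicate error, the depth of each library is unknown, and contact with SF3B1 cannot be told apart from tags of abundant transcripts. Among markers of the line, AXL held 3 intervals of up to 31 tags and VIM held 1 of 18 tags, whereas CD44, LGALS1 and CAV1 held 0. Of 6 luminal epithelial genes, CDH1 alone held an interval, of 3 tags, and the leukocyte and endothelial markers PTPRC, CD3E and PECAM1 held 0. Only 5.27% of all protein-coding genes held an interval, so counts in such short lists do not tell the identity of the cells.

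SF3B1 sits near the intron branch point, the adenosine that attacks the 5′ splice site in the first step of splicing, and holds the U2 small nuclear RNA on the pre-mRNA. The genes examined make the machinery that copies DNA in S phase and restores its methylation. The MCM proteins form the ring-shaped helicase that unwinds the duplex, DNA polymerase alpha lays down primers, polymerase epsilon extends the leading strand and polymerase delta the lagging strand. PCNA is the sliding clamp that tethers polymerases to DNA, and RFC1 is the large subunit of the complex that loads it. UHRF1 recognises hemimethylated CpG sites behind the fork and recruits DNMT1, which methylates the new strand.

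DNMT1, the maintenance DNA methyltransferase, held the tallest interval of the 10 genes. The gene spans 61.6 kb on chromosome 19, from 10133346 to 10194953 (hg38, as for all positions), and is transcribed from the minus strand. Its tallest interval lay at 10156638 to 10156680 with a height of 34 tags, the height being the number of pooled tags at the top of the peak. The other 3 intervals of DNMT1 lay at 10139857 to 10139899 with 9 tags, at 10140337 to 10140379 with 7 tags and at 10141408 to 10141446 with 8 tags. The tall interval thus stood apart from 3 low ones near the median of the whole list, 7 tags. Counting error alone gave an exact Poisson 95% interval of 23.5 to 47.5 for 34 tags and of 4.12 to 17.1 for 9 tags, and these did not overlap. Such intervals take each tag as independent, leave out the spread between cultures, and apply to heights that the authors selected as peaks. The 34-tag interval was also singled out as the tallest after the heights were known, so the comparison is a description and not a test.

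The tall DNMT1 interval was also tall for the list as a whole. It ranked 46th of all 1406 intervals and 29th of the 1306 inside a protein-coding gene listed for them, nested small RNA genes included. It held 58.6% of the 58 tags summed over the 4 DNMT1 heights. Among the 12 protein-coding genes with at least 4 intervals, the median share of the tallest was 33.0%, and DNMT1 had the second highest share. Some of the 12 held more than 4 intervals, and the share was lower in those genes, which lowers this median. By summed height DNMT1 ranked 17th of 1057 protein-coding genes with an interval. No other RefSeq gene overlaps the span of DNMT1, so none of its intervals lay at a nested small RNA gene.

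POLE, the catalytic subunit of the leading-strand polymerase epsilon, held as many intervals as DNMT1, but of more even height. The gene spans 63.6 kb on the minus strand of chromosome 12, from 132623762 to 132687342. Its tallest interval, of 12 tags, lay at 132668800 to 132668842. Intervals of 8 tags lay at 132672329 to 132672360 and at 132641319 to 132641360, and the lowest, of 7 tags, at 132672843 to 132672895. The Poisson intervals of 12 tags (6.20 to 21.0) and of 7 tags (2.81 to 14.4) overlapped, so the POLE heights were not told apart by counting error. Their sum was 35 tags, which ranked 50th of the 1057 genes, and the tallest held 34.3% of it. No other RefSeq gene overlaps POLE either.

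**Figure D1:**
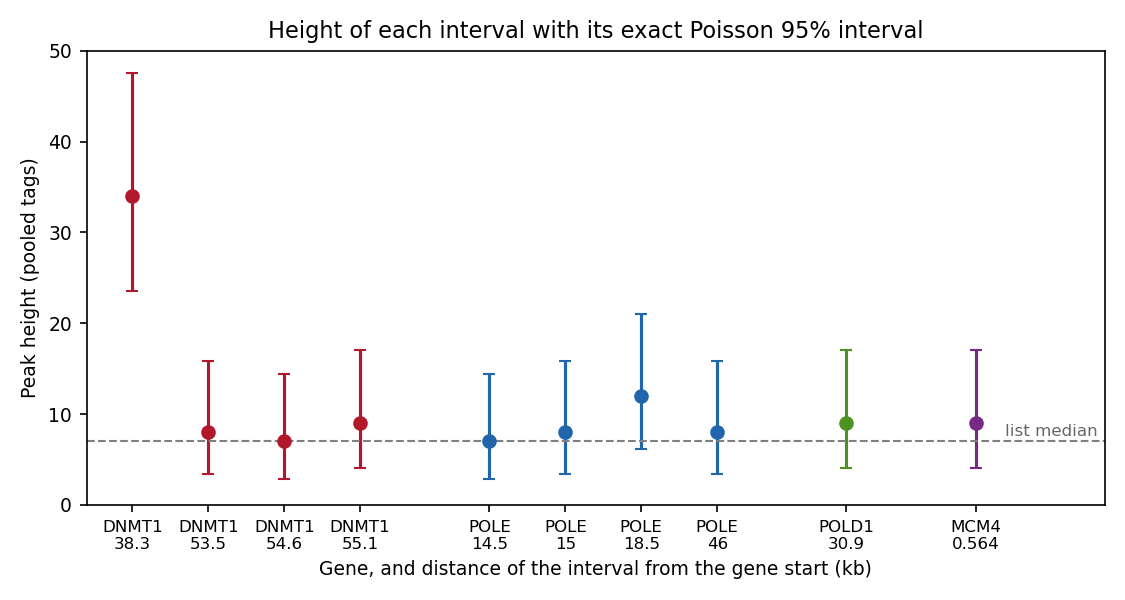
Height of each of the 10 intervals in pooled tags (points), with exact Poisson 95% intervals (bars) that cover counting error only; labels give the gene and the distance from its start in kb, and the dashed line is the median of the whole list, 7 tags. The DNMT1 interval of 34 tags stands above the other 9, which lie between 7 and 12 tags.

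Holding 4 intervals was rare in the list. At least 4 intervals were found in 12 of 20050 protein-coding genes (0.0599%), and 8 of these 12 held exactly 4, DNMT1 and POLE among them. At least 1 interval was found in 1057 protein-coding genes (5.27%). An interval above the median height of the list was found in 485 protein-coding genes, which is 2.42% of all 20050. Among genes that held an interval, this was 485 of 1057 protein-coding genes and all 4 of the replication genes. Nothing is read from the 4 of 10 genes examined here against these shares, since the genes were chosen with the list known.

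POLD1, the catalytic subunit of the lagging-strand polymerase delta, held a single interval of 9 tags. It lay at 50415163 to 50415207 on the plus strand of chromosome 19, in a gene of 33.7 kb (50384323 to 50418018). MCM4, a subunit of the replicative helicase, also held a single interval of 9 tags, at 47961483 to 47961526 on the plus strand of chromosome 8, in a gene of 17.2 kb (47960941 to 47978160). With 9 tags both genes shared rank 321 of 1057 by tallest interval, a height that 71 genes had in common. POLD1, MCM4 and the lower intervals of DNMT1 and POLE therefore had heights common in the list, where the middle of the intervals in protein-coding genes ran from 6 to 10 tags between quartiles.

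The intervals lay at different places along the genes. Within DNMT1, the 3 low intervals were grouped at 53.5, 54.6 and 55.1 kb from the gene start, at 86.9 to 89.4% of the span, with gaps of 1028 and 437 nt between them. The tall interval lay upstream at 38.3 kb, 62.2% of the span, and 15.2 kb of sequence without an interval separated it from the group. Within POLE, the group lay near the other end of the gene, at 14.5, 15.0 and 18.5 kb from the start (22.8 to 29.1% of the span), and the tallest POLE interval belonged to it. The remaining POLE interval lay alone at 46.0 kb (72.4%), after a gap of 27.4 kb.

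Both genes thus had 3 intervals close together and 1 apart, but the tallest interval stood alone in DNMT1 and in the group in POLE. The shortest stretch that held 3 interval midpoints was 1.55 kb in DNMT1 and 4.05 kb in POLE. Among the 12 genes with at least 4 intervals its median was 2.77 kb, and in order from the shortest DNMT1 was 5th and POLE 8th. Both genes lay in the middle of that order.

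The single intervals lay near opposite ends of their genes. That of POLD1 was 30.9 kb from the start and 2.83 kb from the end of the span, at 91.6% of it. That of MCM4 was 0.564 kb from the start, at 3.27% of the span, the most start-proximal of the 10. None of the 9 intervals in DNMT1, POLE and POLD1 overlapped a RefSeq start window (250 bases before to 50 after an annotated start). The MCM4 interval was not checked against such windows, since the table used held no entry for MCM4, and the direction of this gene was read from the strand of its interval. Exons and introns were not used here, so no interval was placed in an exon, an intron or at a branch point.

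**Figure D2:**
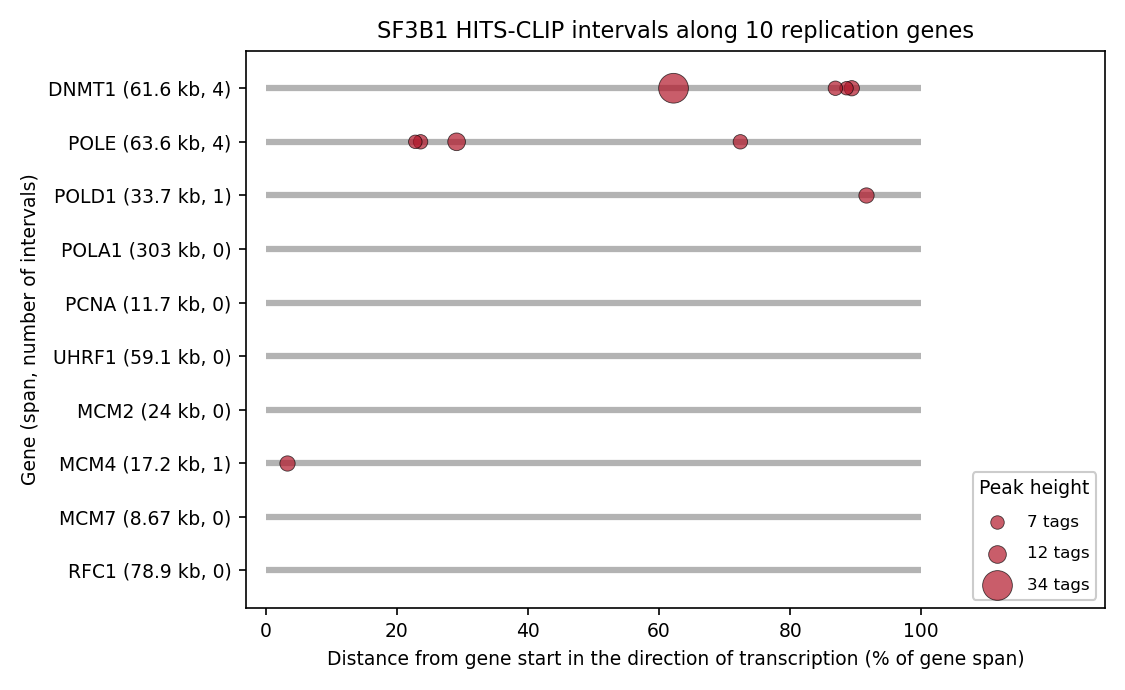
Position of the intervals along the 10 genes, as percent of the gene span from the gene start in the direction of transcription; grey lines are the genes, with span in kb and number of intervals in the labels, and circle area is proportional to peak height. DNMT1 has a group of 3 at 86.9 to 89.4% and the 34-tag interval at 62.2%, POLE has a group at 22.8 to 29.1%, and 6 genes have 0 intervals.

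The widths of the 10 intervals were 32 to 53 nt with a median of 43 nt, the same median as in the whole list. The name of the list ends in halfPH, so these bounds may cover only the upper part of each peak. The POLE intervals were the most varied, with the narrowest (32 nt) and the widest (53 nt) only 482 nt apart. The 9 intervals in DNMT1, POLE and POLD1 lay on the strand of their gene, as did all 1095 intervals in protein-coding genes for which the strand was checked. Intervals were counted only under the gene that the list names, so this match may be set by the listing itself.

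The deposited list also gives for each gene an expected height, 1 value per gene, whose derivation is not given in the sources used here. It was 0.13 tags for POLE, 0.11 for DNMT1, 0.10 for MCM4 and 0.07 for POLD1, against a median of 0.04 over the 1057 protein-coding genes with an interval. That of POLE exceeded the value of 82.8% of these genes, that of DNMT1 79.5%, that of MCM4 76.6% and that of POLD1 66.5%. Relative to expectation, the tall DNMT1 interval reached 309 times and its low intervals 63.6 to 81.8 times. The POLE intervals reached 53.8 to 92.3 times, that of MCM4 90.0 times and that of POLD1 129 times. Among these 4 genes DNMT1 therefore led on this scale too, while POLD1 passed POLE and MCM4 because its expected height was lower.

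Genes of like expected height gave a reference for these heights. Between 0.07 and 0.13 tags, 231 intervals in 178 other protein-coding genes had a median of 8 tags and a range of 6 to 66. Of these, 4 were of 34 tags or more, each in a different gene. The 9 lower intervals of the replication genes, of 7 to 12 tags, lay near that median. The lowest height listed in this range was 6 tags, and peaks under it were not listed for such genes.

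**Figure D3:**
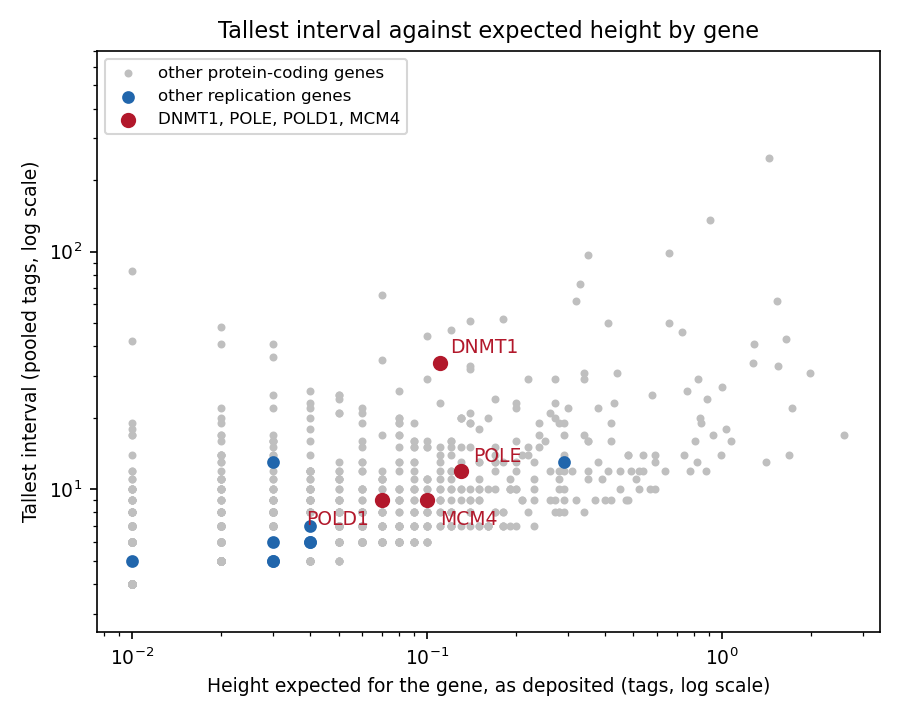
Tallest interval of each gene in pooled tags against the height expected for the gene in the deposited list, both on log scales, for the 1012 protein-coding genes with an expected height above 0; red points are the 4 replication genes, blue points other replication genes and grey points all other genes. DNMT1, at 34 tags and 0.11 expected, lies high among genes of like expected height, whereas POLE, MCM4 and POLD1 lie at 9 to 12 tags.

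Within DNMT1 and within POLE, taller intervals had smaller p-values in the deposited list. The expected height was the same for all intervals of a gene, and both POLE intervals of 8 tags had a listed p-value of 0.00021. The order within a gene may therefore be set by the height alone and is not read as a separate result. The p-values were at the smallest value listed, 1e-100, for the 34-tag interval of DNMT1 and the 12-tag interval of POLE, as for 269 of all 1406 intervals. The weakest of the 10 was 0.0117, for the 7-tag interval of POLE, and the next 0.00759, for the 7-tag interval of DNMT1, where the highest in the list was 0.0499. The list holds significant peaks only, so no value of a peak just outside the threshold was known.

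No interval was listed for POLA1 (303 kb, chromosome X), the catalytic subunit of polymerase alpha, for PCNA (11.7 kb, chromosome 20), UHRF1 (59.1 kb, chromosome 19), MCM2 (24.0 kb, chromosome 3), MCM7 (8.67 kb, chromosome 7) or RFC1 (78.9 kb, chromosome 4). This also held when any interval with its midpoint in the span was counted, whatever gene it was listed under. Within these 6 spans, the nested or overlapping genes held 0 intervals inside the span as well: among them SCARNA23, a small Cajal body RNA gene in POLA1, the microRNA genes MIR25, MIR93 and MIR106B in MCM7, MIR4747 in UHRF1, and RNU6-32P, a U6 copy in RFC1. The 6 genes without an interval included both the longest span, POLA1, and the shortest, MCM7. UHRF1 and RFC1, without an interval, are about as long as DNMT1 and POLE. An empty gene here does not show that SF3B1 was absent, because transcript levels and peaks below the threshold were not known.

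Genes that work with these 10 were described in the same way. Their lists were also chosen with earlier results of these data known, so nothing is read from their shares against those of all genes. Of 68 other genes of replication and DNA methylation, 9 held at least 1 interval (13.2%), against 5.27% of all protein-coding genes. Counting only intervals above the median height of the list, 2 of 68 genes held one (2.94%), against 2.42% of all protein-coding genes. Their 11 intervals had a median of 6 tags, against 7 for all intervals and 8.5 tags for the 10 intervals of the genes examined above. The median expected height was 0.03 tags for these 9 genes and 0.105 for the 4 examined genes with an interval. Partner intervals were listed from 5 tags, whereas the lowest height listed at expected heights of 0.07 to 0.13 was 6. The part of expected height in these medians was not tested. Spans were longer in this list, with a median of 42.8 kb against 24.1 kb over all protein-coding genes. Of its genes of 20 to 100 kb, 8 of 43 held an interval, against 6.75% of all protein-coding genes of that span. The part of span and transcript level in these shares was not tested.

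By role, each group held 1 or 2 genes with an interval. The groups are small and 5.27% of all protein-coding genes held an interval, so no difference by role is read from them. Among helicase partners, CDC45, which binds the MCM ring in the active helicase, held 1 of 6 tags, and MCM3, MCM5, MCM6 and the 4 GINS genes held 0. Of the 6 genes of the MCM2 to MCM7 ring, MCM4 thus had the only interval. Among licensing genes, ORC4, a subunit of the origin recognition complex, held 1 of 5 tags.

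Among polymerase subunits, POLA2, the accessory subunit of polymerase alpha, held 1 of 13 tags, with a listed p-value of 1e-100, although POLA1 held 0. The long noncoding RNA gene LOC105369344 overlaps POLA2 at this position. The smaller subunits of polymerases delta and epsilon (POLD2, POLD3, POLD4, POLE2, POLE3 and POLE4) held 0. Only 5.27% of all protein-coding genes held an interval, and POLD1 and POLE were chosen with the list known. No difference between catalytic and smaller subunits is therefore read from these counts.

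Among clamp loaders, CHTF18, the large subunit of an alternative loader, held 3 intervals of 12, 13 and 8 tags within a gene that has the highest expected height among these partner genes, 0.29 tags. The first 2 of these also lay inside the long noncoding RNA gene LOC124905360. RFC2, RFC3, RFC4 and RFC5 held 0, as did RFC1. RPA1, which coats single-stranded DNA, held 1 of 5 tags, at a position that the long noncoding RNA gene LOC105371755 shares. TOP1, which relieves supercoils, held 1 of 7 tags and DNA2, a nuclease of flap processing, 1 of 5 tags. TIMELESS, of the fork protection complex, held 1 of 6 tags.

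Among genes of DNA methylation, DNMT3A and DNMT3B, the de novo methyltransferases, and UHRF2 held 0, as did TET1, TET2 and TET3, which oxidise methylcytosine. HDAC1, a histone deacetylase, held 1 interval of 6 tags. Of the 3 DNA methyltransferase genes DNMT1 alone held an interval, but it was chosen with the list known. With an interval in 5.27% of all protein-coding genes, no difference between these genes is read from the counts. The tallest intervals in the partner genes, of 13 tags in POLA2 and CHTF18, were lower than the 34 tags of DNMT1. Their Poisson interval (6.92 to 22.2) did not overlap that of 34 tags, but these heights were picked as the tallest and not tested. Relative to the expected height the order differed: the intervals of ORC4 and POLA2 reached 500 and 433 times, above the 309 times of DNMT1, at expected heights of 0.01 and 0.03 tags, where the rounding of the deposited values makes the ratios coarse. The other 9 partner intervals reached 27.6 to 200 times.

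**Figure D4:**
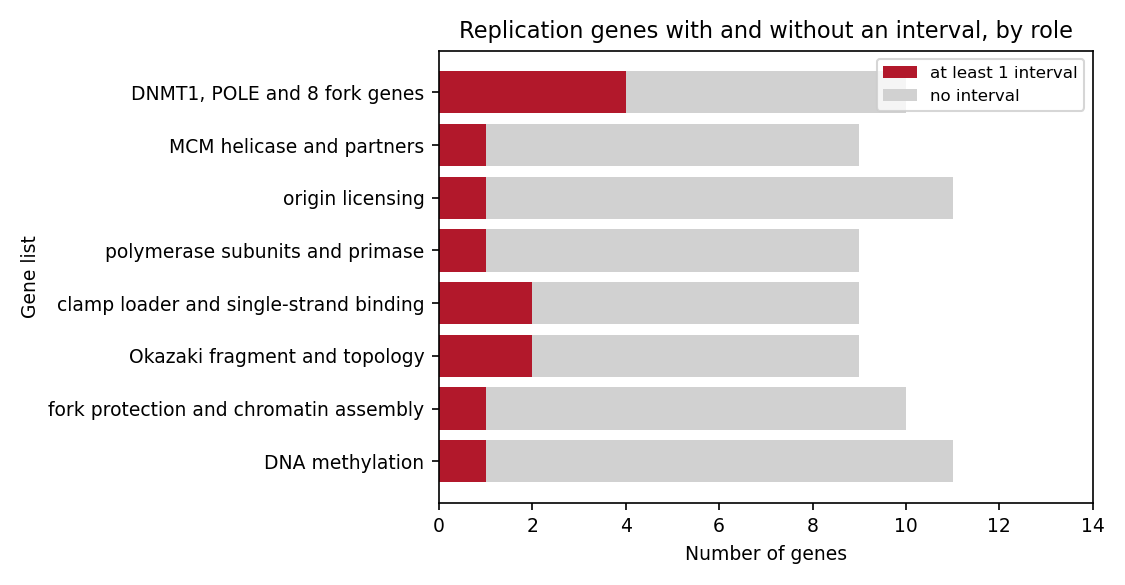
Number of genes with at least 1 interval (red) and with no interval (grey) among the 10 genes examined and in 7 lists of other replication genes by role. The 10 genes include 4 with an interval, and each of the other lists has 1 or 2.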

How the data were processed

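SF3B1 HITS-CLIP of MDA-231-LM2 cells was available as 1 list of peaks, called by the authors on the pooled tags of 2 libraries. The deposited signal is the peak height in pooled tags, without normalization; per the file's name, unique tags and significant peaks were kept. Cutadapt 2.3, BWA 0.7.17 and hg38 are named in the submitters' processing notes; sources used here do not give the peak caller. The list has 1587 rows, of which 1406 are distinct intervals, and 1190 of 1191 gene numbers matched RefSeq (GRCh38.p14), which also gave spans and start windows. The depth per library is unknown. No test was run, because the genes and lists were chosen with earlier results of these data known and the list is pooled. Percentages stand beside those of all 20050 placed protein-coding genes. All 10 genes and partner genes with an interval were named; further genes named at 0 were chosen after the list was seen. Alternatives were other gene assignments, duplicate rows, stricter thresholds and merging within 50 nt. Assignment was tested on simulated data. Interval sequences were not used here, and 1 list, of nucleotide supply, is not reported here. Software was pandas 2.3.3, numpy 2.4.6 and scipy 1.17.1 under Python 3.11.15, with matplotlib 3.10.9 for plots.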

Additional observations from a re-analysis of the deposited data

How the results depend on the processing

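The counts were recomputed under 7 alternatives for the 10 genes and 5 for the wider lists, and 36 of 38 values stayed within 1.5 times the reported one. Some of these could not move. The smallest gap between intervals of the 10 genes was 437 nt, so merging within 50 nt left their counts as they were. Duplicate rows cannot change a number of genes. A fall from 4 to 3 intervals also lies within 1.5 times. All 4 genes with an interval kept one under each of the 7, and their intervals numbered 8 above the median height of 7 tags, 9 at a listed p-value under 0.01 and 10 otherwise. DNMT1 held 3 and POLE held 3 above the median height. In that setting other replication genes with an interval fell from 9 to 2 (CHTF18 and POLA2) and protein-coding genes from 1057 to 485 (2.42%). No paired analysis was possible because there is 1 group and the list pools both replicates, so no replicate could be left out either. Pooled heights of 5 to 13 tags, the range of most intervals named, overlap in their counting error.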
